A study of Mus musculus with 17 samples.

Results

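The genes described here are regulators that take spermatogonia out of the undifferentiated state and into meiosis. They were chosen by name from the deposited table: *Stra8*, *Gm4969* (the older symbol of *Meiosin*), *Sohlh1*, *Sohlh2*, *Kit*, *Dmrt1*, *Dazl*, *Gm1564* (the older symbol of *Meioc*), *Ythdc2* and *Tex15*. Of the 10 names given, 9 were read from the table of 23282 genes, and *Gm4969* was not analysed here. RNA-seq was performed on 3 kinds of FACS-sorted germ cells, spermatogonia (SPG), spermatocytes at the pre-leptotene stage (PreL) and those in leptotene or zygotene (LZ), of WT and *Nat10*-SKO mice. WT gave 3 libraries each of SPG and PreL and 2 of LZ, and SKO gave 3 libraries of every stage. The WT mice are labelled as wildtype, and whether they carried the Cre allele is not given in the sources used here. The SKO mice were *Nat10* fl/-;*Stra8*-GFPCre, so that they carry 1 floxed and 1 deleted *Nat10* allele and a GFP-Cre cassette knocked into the *Stra8* locus, which drives excision in germ cells from the onset of *Stra8* expression. All groups share 1 background, C57BL/6 in the labels and C57BL/6J in the methods. The libraries of a group are described as biological replicates, but the ages of the mice and which animals each library came from are not given in the sources used here, so p-values measure the spread between these libraries. Because the knock-in alters *Stra8* itself, and gene counts do not separate alleles, the *Stra8* values of SKO libraries cannot be told apart into intact and modified transcripts.

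In the mouse testis, retinoic acid drives spermatogonia to differentiate and, in the same cycle, to enter meiosis. Differentiating spermatogonia carry the receptor KIT and depend on the transcription factors SOHLH1 and SOHLH2, while DMRT1 holds back meiosis until the mitotic divisions are over. STRA8 and its partner MEIOSIN then switch on meiotic genes, and the RNA-binding proteins DAZL, MEIOC and YTHDC2 adjust which transcripts are translated or removed as the mitotic programme ends.

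The deposited values are read counts that the authors scaled by 1 factor per library, set with ERCC spike-in RNA and the number of input cells. Whole reads were recovered from them, between 5812380 and 13820953 per library, and each of the 9 genes had at least 234 reads in every library, so that all passed the filter of a mean of 10 reads. Values are given below as rescaled values, the deposited values after division by size factors (median of ratios) of all 17 libraries. The fold changes between genotypes come from limma-trend on log2(rescaled value + 10) with size factors computed within the stage. A gene was called when its Benjamini-Hochberg adjusted p was under 0.05 and it changed by more than 1 on the log2 scale, and all adjusted p-values below are limma's over all genes tested. *Nat10* lay at 542 to 823 in WT and at 184 to 470 in SKO, and its SKO to WT differences in SPG, PreL and LZ were -0.87, -1.29 and -1.47 (log2, adjusted p = 0.0326, 0.00591 and 0.00469). On the deposited values, *Nat10* of SKO lay below WT in SPG and LZ. In PreL the genotypes overlapped there, with 379 to 626 in WT and 228 to 396 in SKO. The germ cell gene *Ddx4* was read at 388 to 729 RPM (reads scaled to the library's total) in all libraries. In LZ, the summed level of 7 late spermatocyte markers was 3486 and 6169 RPM in WT but 111 to 124 RPM in SKO, so the LZ libraries of the 2 genotypes also differed in the markers of later cells. Without rescaling, the median gene was shifted between SKO and WT by -0.25 in SPG, 0.73 in PreL and -0.25 in LZ on the log2 scale, and between WT LZ and WT PreL by 1.80.

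The promoters of *Stra8*, *Sohlh2* and *Sohlh1*, the 3 members described first, are shown with matches to motifs of the pathway's own factors. They were taken from the set of RefSeq promoters (GRCm38.p6) used here, which held 6 of the 9 genes. They run 5′ to 3′ from 250 bases before to 50 bases after the transcription start. Capitals mark matches on either strand to AGGTCA, the half-site bound by retinoic acid receptors, to CANNTG, the E-box bound by helix-loop-helix proteins such as SOHLH1 and SOHLH2, and to CNCCTCAG, the motif bound by STRA8 and MEIOSIN.
*Stra8*, chr6:34920698-34920997 (+ strand): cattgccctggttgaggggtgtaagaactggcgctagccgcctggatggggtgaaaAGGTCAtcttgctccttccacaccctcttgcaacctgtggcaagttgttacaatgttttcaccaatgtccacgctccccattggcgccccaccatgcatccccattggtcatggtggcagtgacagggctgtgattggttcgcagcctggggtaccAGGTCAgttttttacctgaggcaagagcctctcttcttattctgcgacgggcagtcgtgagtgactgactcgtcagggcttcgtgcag
*Sohlh2*, chr3:55181794-55182093 (+ strand): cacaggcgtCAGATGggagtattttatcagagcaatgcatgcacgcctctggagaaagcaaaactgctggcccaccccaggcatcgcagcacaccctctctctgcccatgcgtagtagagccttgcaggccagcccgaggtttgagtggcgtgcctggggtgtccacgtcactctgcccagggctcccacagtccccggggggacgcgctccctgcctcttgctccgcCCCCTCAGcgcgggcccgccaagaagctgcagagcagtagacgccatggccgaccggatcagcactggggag
*Sohlh1*, chr2:25847199-25847498 (- strand): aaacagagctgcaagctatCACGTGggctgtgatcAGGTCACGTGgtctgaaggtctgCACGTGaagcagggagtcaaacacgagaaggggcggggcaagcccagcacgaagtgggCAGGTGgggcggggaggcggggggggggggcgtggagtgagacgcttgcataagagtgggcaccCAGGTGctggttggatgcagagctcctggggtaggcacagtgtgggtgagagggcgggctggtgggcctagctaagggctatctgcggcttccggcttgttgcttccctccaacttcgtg
The *Stra8* promoter held 2 AGGTCA half-sites, which began 194 and 38 bases before the start, and no E-box. AGGTCA was present in 16.25% of 32544 RefSeq promoters of the same length. The *Sohlh2* promoter held 1 CNCCTCAG match, which began 22 bases before the start, against 7.99% of all promoters, and 1 E-box. Of the promoters not shown, that of *Dazl* also held 1 CNCCTCAG match, which began 15 bases after the start. Those of *Kit* and *Dazl* each held 1 E-box. The *Sohlh1* promoter held 5 E-boxes, which began 231, 211, 192, 134 and 70 bases before the start, and 1 AGGTCA half-site, which began 215 bases before it and overlapped the second E-box. CANNTG was found in 72.3% of all promoters, and CACGTG, the form of 3 of these E-boxes, in 7.17%. A match is a run of letters and not a measured binding site.

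*Stra8* marks the response to retinoic acid and opens the meiotic programme. In WT, its rescaled values were 7906, 6121 and 6913 in SPG replicates 1, 2 and 3, 14424, 13514 and 16203 in PreL replicates 1, 2 and 4, and 4148 and 4368 in LZ replicates 2 and 3. On this scale the 3 WT stages did not overlap, and PreL held the peak. In SKO, the values were 11009, 9227 and 10273 in SPG replicates 1, 3 and 4, 7950, 7130 and 10908 in PreL replicates 1, 2 and 3, and 3905, 4001 and 4016 in LZ replicates 1, 2 and 3. SKO SPG and SKO PreL overlapped, so no PreL peak was seen on rescaled values, and only LZ stood apart below them. On the deposited scale, SKO PreL (8778 to 10740) lay above SKO SPG (4404 to 6652) and SKO LZ (7457 to 8394). There, WT PreL (8970 to 11338) lay above WT SPG (4312 to 5057) but enclosed WT LZ (9440 to 9584). Which genotype had PreL apart from both other stages thus rested on the scaling.

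Between stages, *Stra8* rose from SPG to PreL in WT by 1.08 on the log2 scale (SE 0.14, adjusted p = 0.000268), the 20th smallest p of 13530 genes, and was the only member called of 9, against 5.33% of all genes. In SKO the same step gave -0.25 (SE 0.14, adjusted p = 0.308), and 0 of the 9 members were called by limma, edgeR or DESeq2, against 4% of all genes by limma, with 5 members at an unadjusted p under 0.05. At an adjusted p under 0.05 without the fold threshold, 3 members differed over this step in SKO: *Kit* by -0.84, *Dmrt1* by -0.54 and *Ythdc2* by 0.75. Without rescaling, where the median gene shifted by 0.98, this SKO step was 0.81 for *Stra8*, 0.22 for *Kit* and 0.52 for *Dmrt1*, so the signs of all 3 rest on the scaling. The genotype effect of *Stra8* itself differed between SPG and PreL by -1.33 (SE 0.20, adjusted p = 0.00916 for the interaction), the 4th smallest p of 13530 genes and the only member called, against 0.362% of all genes. Without WT SPG replicate 2 the WT rise was 0.99 (adjusted p = 0.00279), just under the fold threshold. On the values without rescaling, the interaction was -0.31 (adjusted p = 0.261, against 1.57e-06 to 0.0495 over the other 20 alternatives) beside a shift of 0.94 of the median gene, a difference of -1.25 from that shift.

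The SKO and WT libraries can also be compared within a stage, and there the sign of the *Stra8* difference turned. In SPG, the 3 SKO libraries lay above the 3 WT libraries (log2 fold change 0.53, SE 0.13, adjusted p = 0.0168), and in PreL the 3 SKO libraries lay below the 3 WT libraries (-0.78, SE 0.17, adjusted p = 0.0138), neither past the fold threshold. In LZ the difference was -0.11 (SE 0.14, adjusted p = 0.528). On the deposited scale, the PreL values were 8970 to 11338 in WT and 8778 to 10740 in SKO and overlapped, while those of SPG were 4312 to 5057 in WT and 4404 to 6652 in SKO. The lower PreL level of SKO was therefore seen relative to the other transcripts of the library and not in calibrated amount. Markers of other testis cells also differed in PreL. The summed level of 8 Sertoli markers was 76.9 to 83.6 RPM in WT PreL and 802, 1002 and 70.3 RPM in SKO PreL replicates 1, 2 and 3, and that of 7 Leydig markers was 6.25 to 17.7 RPM in WT and 271, 459 and 40.4 RPM in SKO. That of 9 spermatid markers was 601 to 1002 RPM in WT PreL and 66.3 to 75.6 RPM in SKO PreL, and that of 7 late spermatocyte markers was 326 to 1116 RPM and 62.7 to 82.2 RPM. The part of these cells in the PreL results of *Stra8* and the other members was not tested.

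**Figure D1:**
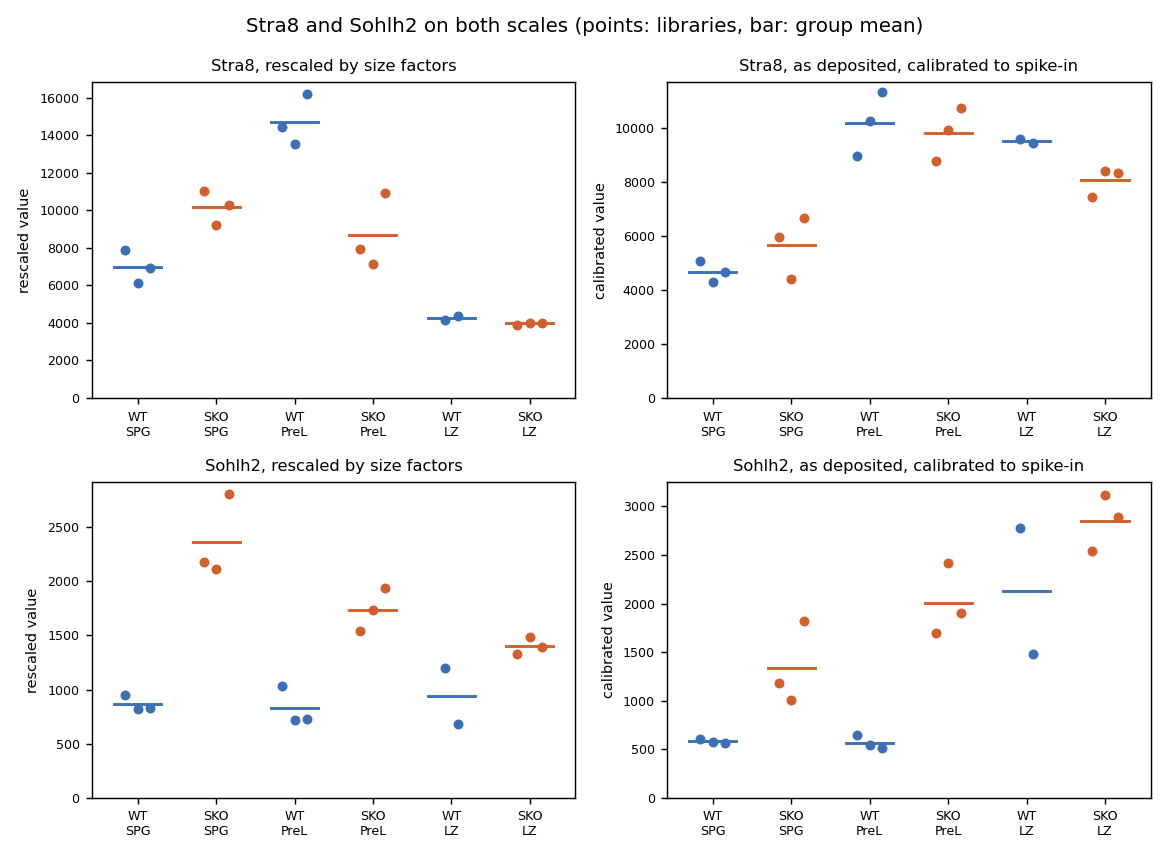
*Stra8* (top) and *Sohlh2* (bottom) in the 17 libraries by genotype and stage, as rescaled values (left) and as deposited calibrated values (right), with 1 point per library, a bar at each group mean and axes from 0. *Stra8* peaked in WT PreL on the left, where WT PreL and SKO PreL did not overlap, and overlapped between them on the right, whereas *Sohlh2* was above WT in every SKO library of SPG and PreL on both scales.

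*Sohlh2* encodes a helix-loop-helix factor of early spermatogonia, and it was the only member called between the genotypes in 2 stages. In SPG its rescaled values were 954, 822 and 833 in WT replicates 1, 2 and 3, and 2177, 2110 and 2811 in SKO replicates 1, 3 and 4. The lowest SKO library lay well above the highest WT library. The log2 fold change was 1.40 (SE 0.17, adjusted p = 0.000343), with the 46th smallest p of 12846 genes, and *Sohlh2* was the only member called in SPG, against 6.02% of all genes. It was called in each of its 16 alternatives, with a log2 fold change of 1.13 (adjusted p = 0.00389) on the values without rescaling. Markers of other testis cells were also higher in SKO SPG than in WT SPG, with sums of 62.4 to 225 against 5.61 to 15.5 RPM for 7 Leydig markers, 49.97 to 92.7 against 26.2 to 40.0 RPM for 8 Sertoli markers, 35.3 to 65.3 against 0.777 to 4.41 RPM for 5 myoid markers and 42.3 to 70.0 against 3.91 to 6.90 RPM for 5 macrophage markers, whereas the sum of 9 spermatid markers was lower, with 29.4 to 51.5 against 145 to 339 RPM. Their part in the SPG results was not tested. In bulk samples, fewer cells of a type and less RNA per cell cannot be told apart, here and in all results below.

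In PreL, *Sohlh2* had 1031, 716 and 730 in WT replicates 1, 2 and 4, and 1537, 1735 and 1936 in SKO replicates 1, 2 and 3. The genotypes again did not overlap. *Sohlh2* was higher in SKO by 1.08 (SE 0.18, adjusted p = 0.00423) and was the only member called in PreL, against 11.1% of all genes. The value was 0.99 (adjusted p = 0.0238) without WT replicate 2 and 0.998 (adjusted p = 0.0157) without WT replicate 4, in both cases just under the fold threshold. In LZ, *Sohlh2* stood at 1203 and 685 in WT replicates 2 and 3 and at 1329, 1487 and 1396 in the SKO replicates, a log2 fold change of 0.61 (SE 0.24, adjusted p = 0.0707) that was not called. Its genotype effect did not differ between neighbouring stages at an adjusted p under 0.05, with -0.35 (SE 0.28) from SPG to PreL and -0.46 (SE 0.29) from PreL to LZ. From stage to stage *Sohlh2* stayed between -0.44 and 0.16 in both genotypes on rescaled values, with no call. Without rescaling, the PreL to LZ step was 1.83 in WT (adjusted p = 1.59e-06) and 0.51 in SKO (adjusted p = 0.0709). The median gene shifted there by 1.80 and 0.76. The SPG to PreL step was -0.05 in WT (adjusted p = 0.932) and 0.62 in SKO (adjusted p = 0.0256), beside shifts of 0.08 and 0.98.

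*Sohlh1*, the partner gene of *Sohlh2*, was not called between the genotypes in any stage. In SPG its values were 882, 833 and 868 in WT and 1095, 1336 and 1442 in SKO. The genotypes did not overlap, but the difference of 0.55 (SE 0.18) had an adjusted p of 0.0666. In PreL the values of WT (605 to 1095) enclosed those of SKO (857 to 1007). In LZ they were 1096 and 581 in WT and 1274, 1285 and 1287 in SKO. The LZ difference was 0.67 (SE 0.26, adjusted p = 0.0683). Of the LZ libraries, WT replicate 3 had the lowest value, and without WT replicate 2 the log2 fold change was 1.08 (adjusted p = 0.00508) and was called.

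*Kit* encodes the receptor of stem cell factor, the surface protein by which differentiating spermatogonia are known. In SPG its rescaled values were 3546, 3786 and 3110 in WT replicates 1, 2 and 3, and 4987, 4898 and 5666 in SKO replicates 1, 3 and 4. All SKO libraries exceeded all WT libraries, by a log2 fold change of 0.56 (SE 0.13, adjusted p = 0.0137) that was under the fold threshold. On the deposited scale the genotypes overlapped in SPG, with 2101 to 2667 in WT and 2338 to 3668 in SKO (0.29, adjusted p = 0.3555). In PreL the rescaled values were 3263, 2678 and 3589 in WT and 2871, 2926 and 2868 in SKO, which overlapped (log2 fold change -0.12, SE 0.14, adjusted p = 0.571). In LZ, *Kit* stood at 2241 and 1377 in WT replicates 2 and 3, and at 3812, 3785 and 3983 in SKO replicates 1, 2 and 3. The SKO libraries were close together and above both WT libraries, and *Kit* was called higher in SKO LZ (1.12, SE 0.21, adjusted p = 0.00364). Without WT replicate 3 the value was 0.77 (adjusted p = 0.0105) and on the values without rescaling 0.99 (adjusted p = 0.00909), both under the fold threshold.

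*Kit* is also made by Leydig cells and mast cells, and a truncated form by spermatids, so their markers are given beside it. The summed level of 7 Leydig cell markers was 5.61 to 15.5 RPM in WT SPG and 62.4 to 225 RPM in SKO SPG, with 0 of the 7 genes at 0 in all SKO SPG libraries and 1 of 7 in WT. In LZ the Leydig sum was 20.9 and 57.3 RPM in WT and 79.1 to 230 RPM in SKO, while all 4 mast cell markers were at 0 in every SKO LZ library. In PreL, where *Kit* overlapped between the genotypes, the 4 mast cell markers summed to 0 in WT and 7.75 to 7.90 RPM in SKO. The sum of 9 spermatid markers was 658 and 1057 RPM in WT LZ and 42.9 to 45.6 RPM in SKO LZ. The part of these cells in the *Kit* values was not tested.

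*Dmrt1* encodes the factor that keeps spermatogonia from entering meiosis early. Its values in SPG were 7049, 9515 and 8954 in WT and 9823, 10030 and 8938 in SKO, and in PreL 5927, 6947 and 7617 in WT and 6426, 6307 and 7087 in SKO. The genotypes overlapped in both stages (adjusted p = 0.444 and 0.877). In LZ, *Dmrt1* stood at 4659 and 3098 in WT replicates 2 and 3, and at 10549, 8624 and 9115 in SKO replicates 1, 2 and 3. On rescaled values, the SKO LZ libraries thus stood at the level of SPG. On the deposited scale they held 18096 to 20145, against 4509 to 6703 in WT SPG and 4787 to 5787 in SKO SPG. *Dmrt1* was called higher in SKO LZ than in WT LZ (1.29, SE 0.21, adjusted p = 0.0017). With *Kit* it made 2 of 9 members called in LZ, against 39.1% of all genes, a share under that background. Without WT replicate 3 the *Dmrt1* value was 0.99 (adjusted p = 0.0252), just under the fold threshold. Sertoli cells also make *Dmrt1*, and the sum of 8 Sertoli markers was 1299 and 275 RPM in WT LZ replicates 2 and 3 and 529 to 697 RPM in SKO LZ. The sum of 7 late spermatocyte markers was 3486 and 6169 RPM in WT LZ and 111 to 124 RPM in SKO LZ. The part of Sertoli cells in the *Dmrt1* values was not tested. Nor was that of late spermatocytes in the LZ values of *Kit*, *Dmrt1* and *Dazl*.

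On rescaled values, *Kit* and *Dmrt1* lay lower in LZ than in PreL in WT and higher in SKO, whereas without rescaling, where the median gene rose by 1.80, the WT steps were 0.84 for *Kit* and 0.85 for *Dmrt1*. In WT the step was -0.84 for *Kit* (SE 0.17, adjusted p = 0.000731) and -0.84 for *Dmrt1* (SE 0.17, adjusted p = 0.000711). In SKO it was 0.42 for *Kit* (SE 0.15, adjusted p = 0.0515) and 0.51 for *Dmrt1* (SE 0.15, adjusted p = 0.0173). None of these steps passed the fold threshold, but the effects of genotype in PreL and in LZ differed by 1.26 for *Kit* (SE 0.23, adjusted p = 0.000329) and by 1.35 for *Dmrt1* (SE 0.23, adjusted p = 0.000156). *Stra8* differed by 0.68 (SE 0.21, adjusted p = 0.0169) and *Dazl* by 0.62 (SE 0.24, adjusted p = 0.0471), which made 4 of 9 members called, against 38.2% of all genes, a share near the background. The median gene was at -0.31 in this interaction. On the values without rescaling, *Kit* gave 0.39 and *Dmrt1* 0.47 beside a shift of -1.12 (adjusted p = 0.292 and 0.172, against 6.86e-06 to 0.00366 and 3.84e-07 to 0.00224 over their other 19 alternatives), and *Stra8* and *Dazl* turned sign. The WT values rest on 2 LZ libraries.

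**Figure D2:**
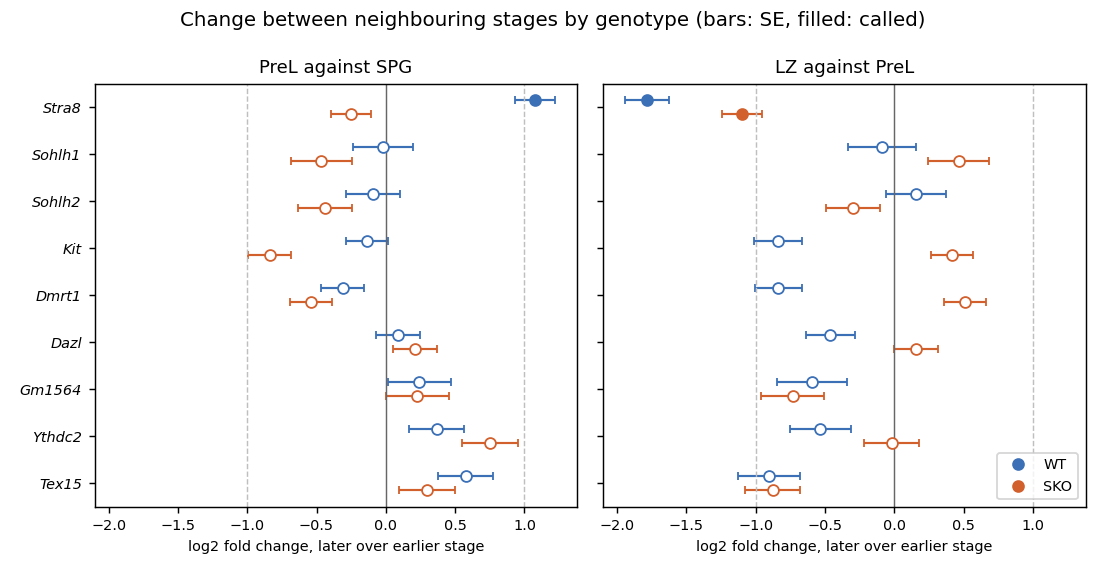
Log2 fold change of each of the 9 genes on rescaled values from SPG to PreL (left) and from PreL to LZ (right) in WT (blue) and SKO (orange), with SE as bars, filled points for called genes and dashed lines at the fold threshold. *Stra8* was called higher in PreL than in SPG in WT (1.08) and lay at -0.25 in SKO, and *Kit* and *Dmrt1* lay on opposite sides of 0 in the 2 genotypes on the right.

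Over the same step *Stra8* fell in both genotypes. From PreL to LZ it fell by 1.78 in WT (SE 0.16, the 6th smallest p of 13530 genes) and was the only member called, against 28.9% of all genes. In SKO it fell by 1.10 (SE 0.14) and was again the only member called, against 13.3% of all genes. Without SKO PreL replicate 3, the highest of the 3, the SKO value was -0.92 (adjusted p = 5.24e-05), under the fold threshold. On the values without rescaling the steps were -0.09 in WT and -0.28 in SKO (adjusted p = 0.628 and 0.152, against at most 0.000102 under their other alternatives), beside shifts of 1.80 and 0.76 of the median gene.

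**Figure D3:**
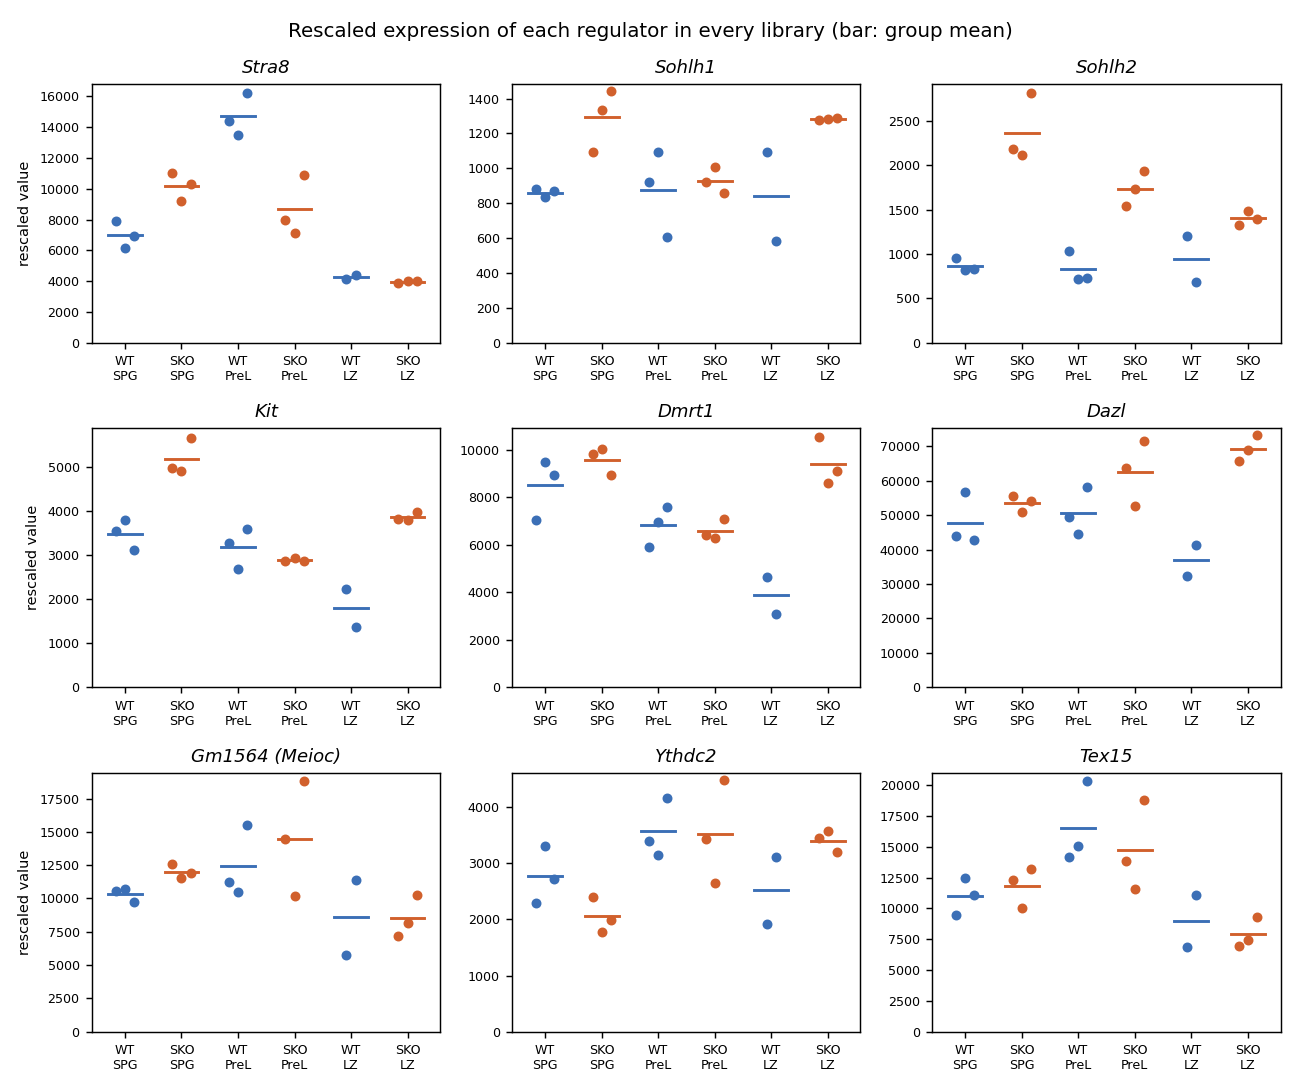
Rescaled values of the 9 genes, 1 panel each, in the 17 libraries by genotype and stage (blue WT, orange SKO), with 1 point per library, a bar at each group mean and axes from 0. The PreL peak of *Stra8* in WT, the higher *Sohlh2* in SKO SPG and PreL, and *Kit*, *Dmrt1* and *Dazl* above WT in SKO LZ can be read from the panels.

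*Dazl* encodes an RNA-binding protein that licenses germ cells for meiosis, and it had the highest level per length of the 9 genes in all 6 groups, with group means of 432 to 765 RPKM (reads scaled to exon length and library total). Its rescaled values in LZ were 32338 and 41481 in WT replicates 2 and 3 and 65871, 68945 and 73245 in SKO replicates 1, 2 and 3. The SKO libraries lay above both WT libraries by 0.90 (SE 0.24, adjusted p = 0.0151), under the fold threshold. In SPG (42878 to 56728 in WT, 50931 to 55658 in SKO) and PreL (44649 to 58090 in WT, 52600 to 71447 in SKO) the genotypes overlapped. On the deposited scale, the median gene shifted by 0.73 in PreL. There, all SKO PreL libraries lay above WT for every member except *Stra8*, which overlapped. Of all 13132 genes tested in PreL, 4044 were called on that scale. Among the members, *Kit* was at 0.60 (adjusted p = 0.0177) and *Dmrt1* at 0.69 (adjusted p = 0.0101), while *Sohlh2* was at 1.80 (adjusted p = 0.00014) and passed the fold threshold. *Dazl* was at 1.03 (adjusted p = 0.00183) and also passed the fold threshold. Its interaction of genotype with PreL and LZ was called in 9 of 19 alternatives on rescaled values (adjusted p = 0.0125 to 0.205), and lost without any of WT PreL replicate 1 (0.63) or 4 (0.52), SKO PreL replicate 1 (0.64) or 2 (0.50), WT LZ replicate 2 (0.44) and SKO LZ replicate 2 (0.63) or 3 (0.58).

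*Gm1564* (*Meioc*) and *Ythdc2* encode the 2 proteins of a complex that removes mitotic transcripts, and neither was called in any comparison. *Gm1564* had 9733 to 10745 in WT SPG and 11546 to 12567 in SKO SPG, a narrow gap of 0.20 on the log2 scale (SE 0.11, adjusted p = 0.258). In PreL and LZ its libraries of the 2 genotypes overlapped (log2 fold changes 0.21 and 0.05). From PreL to LZ it was at -0.59 in WT (adjusted p = 0.0643) and -0.73 in SKO (adjusted p = 0.0216), and WT LZ replicates 2 and 3 were far apart, with 5725 and 11423. Without WT LZ replicate 3 the WT step was -1.08 (adjusted p = 0.00548) and was called.

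*Ythdc2* had 2290, 3306 and 2723 in WT SPG and 2399, 1776 and 1994 in SKO SPG. On rescaled values it was the only member with a lower mean in SKO SPG, by -0.44 (SE 0.17, adjusted p = 0.11), and the genotypes overlapped. On the deposited scale, *Ythdc2* had 1465 to 2329 in WT SPG and 848 to 1298 in SKO SPG, without overlap (-0.71, adjusted p = 0.0427). The median gene shifted there by -0.25, and *Dazl*, *Dmrt1*, *Gm1564* and *Tex15* also had lower means in SKO SPG. In PreL the difference was -0.03 (SE 0.19), and in LZ it was 0.46 (SE 0.22, adjusted p = 0.125), with 1921 and 3109 in WT and 3197 to 3565 in SKO. Along the SKO stages, *Ythdc2* was higher in PreL than in SPG by 0.75 (SE 0.20, adjusted p = 0.0273), against 0.37 in WT (SE 0.20, adjusted p = 0.247), and the 2 steps did not differ at an adjusted p under 0.05 (0.38, SE 0.28).

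*Tex15* encodes a protein needed for the repair of meiotic DNA breaks and for transposon silencing in germ cells. It peaked in PreL in both genotypes by group mean, with 14138, 15092 and 20329 in WT and 13871, 11563 and 18744 in SKO. From PreL to LZ it was lower by nearly the same amount in each, -0.90 in WT (SE 0.22, adjusted p = 0.00318) and -0.88 in SKO (SE 0.20, adjusted p = 0.00253), under the fold threshold, while without rescaling the steps were 0.79 and -0.06. The genotype difference was 0.09 in SPG, -0.17 in PreL and -0.17 in LZ (SE 0.14 to 0.25), with overlapping libraries in each stage.

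**Figure D4:**
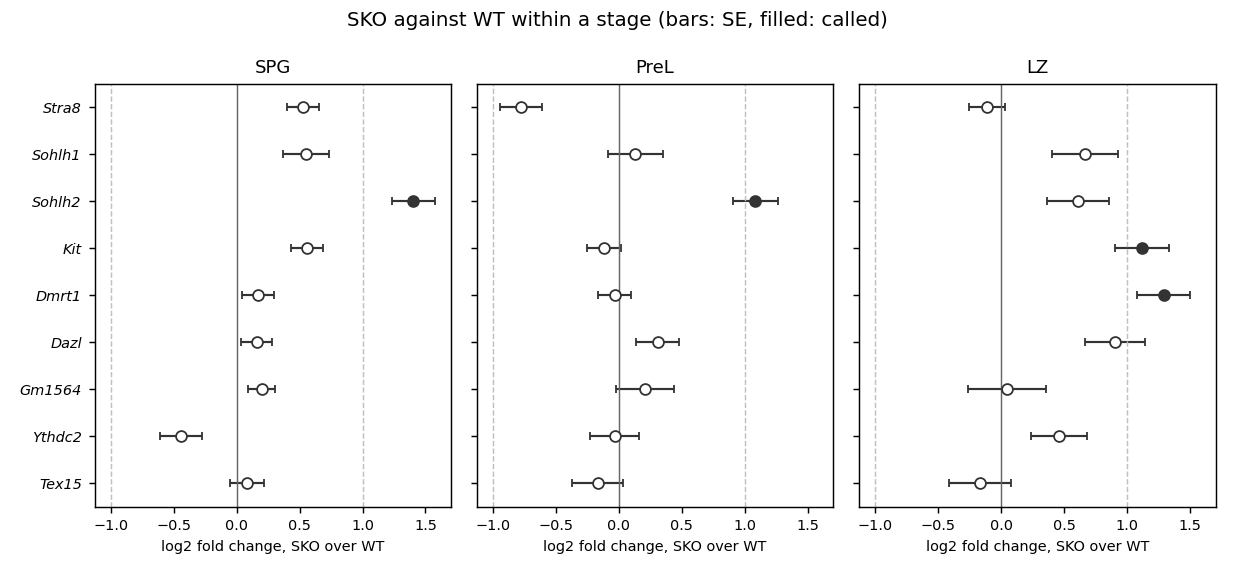
Log2 fold change of SKO over WT for the 9 genes in SPG, PreL and LZ, with SE as bars, filled points for called genes and dashed lines at the fold threshold. *Sohlh2* was called in SPG (1.40) and PreL (1.08) and *Kit* (1.12) and *Dmrt1* (1.29) in LZ, and *Stra8* lay right of 0 in SPG and left of 0 in PreL.

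Counted by range on rescaled values, 5 of the 9 genes had all SKO libraries above all WT libraries in SPG and 0 below. Of all 12846 genes tested there, 2027 lay above and 1764 below (29.5% in either direction). In PreL there were 1 above and 1 below, against 2245 and 2665 of 13132 genes (37.4%). In LZ there were 6 above and 1 below, against 4215 and 5432 of 13724 genes (70.3%). On the deposited scale, *Sohlh1* and *Sohlh2* lay above and *Ythdc2* below in SPG. There, every member except *Stra8* lay above in PreL, and in LZ *Kit*, *Dazl* and *Dmrt1* lay above and *Stra8* below. The median log2 fold change of the 9 genes was 0.20 in SPG, -0.03 in PreL and 0.61 in LZ, beside 0.00, 0.04 and -0.13 over all genes tested. Per length, *Dazl* was followed by *Stra8*, *Dmrt1* and *Gm1564* in each group, in varying order, and *Kit* and *Ythdc2* were among the lowest 3, with group means of 9.52 to 27.1 and 10.8 to 18.4 RPKM. *Stra8* stood second in 5 of the 6 groups, with 363 ± 27.8 in WT PreL (SD, n = 3) and 224 ± 35.9 in SKO PreL, and below that in SKO LZ, where *Dmrt1* (124) exceeded it (75.9). *Sohlh1* and *Sohlh2*, apart in WT SPG (31.2 and 17.2), were level in SKO SPG (46.7 and 46.8).

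Some genes had patterns close to a member's over the 17 libraries, measured by Pearson r of log2(rescaled value + 10) among 10254 other genes that averaged 50 reads or more. Points of 1 stage or genotype share sort and depth, so these are descriptions. Closest to *Stra8* were *Gal* (r = 0.955), *H3f3b* (0.938) and *Nup210* (0.937), and closest to *Sohlh2* were *Snx6* (0.962), *Cnn3* (0.928) and *Asah1* (0.915). *Kit* was most like *Mtmr7* (0.911), *Gm15107* (0.909) and *Nono* (0.906), and *Dmrt1* most like *Arl5a* (0.959), *Fundc2* (0.952) and *Gm15107* (0.943). *Dazl* was most like *Scml2* (0.955), *Cenpk* (0.927) and *Zfand5* (0.923), *Gm1564* most like *Top2b* (0.944), *Alcam* (0.924) and *Cpd* (0.912), and *Tex15* most like *Faf1* (0.929), *H3f3b* (0.923) and *Kdm5a* (0.919). For *Ythdc2* they were *Osbpl8* (0.890), *Eif4enif1* (0.880) and *Hells* (0.874), and for *Sohlh1* *Txndc17* (0.856), *Psmb10* (0.813) and *Dusp1* (0.811). Among the members themselves, *Kit* and *Dmrt1* (0.890) and *Gm1564* and *Tex15* (0.876) were the pairs most alike.

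Around these regulators, a list of 31 early meiotic genes was measured, which was not chosen by a dependence on STRA8 or MEIOSIN. From SPG to PreL, 11 of the 30 tested rose and 1 fell in WT, against 3.57% and 1.76% of all genes, and 10 rose and 1 fell in SKO, against 3.06% and 0.939%, with medians of 0.85 and 0.67 beside 0.05 and 0.02 over all genes. Within a stage, 2 of 29 were higher in SKO SPG, against 3.95% of all genes, and 3 of 30 in SKO PreL, against 5.32%, and none was lower in either, against 2.06% and 5.83% (3 and 2 lower at an unadjusted p under 0.05 by limma). Among the higher genes were the axial element gene *Sycp3* in PreL (1.13, adjusted p = 0.00536), *Hormad2* in SPG (1.13, adjusted p = 0.0116) and the recombination gene *Mnd1* in both (1.65 and 1.03, adjusted p = 0.0173 and 0.014). In LZ, 8 of 30 were lower in SKO, against 25.8% of all genes, a share near the background, and 0 were higher, against 13.4%, with 1 higher at an unadjusted p under 0.05 by limma. The lowest adjusted p-values among the 8 were those of the MND1 partner gene *Psmc3ip* (-2.35, adjusted p = 0.000144) and the synaptonemal complex gene *Syce1* (-2.03, adjusted p = 0.000777). The list's median was 0.30 in SPG, 0.29 in PreL and -0.66 in LZ.

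Of 7 genes that restrain the meiotic programme or, for *Dmrtb1*, act at the change from mitosis to meiosis, all 7 were tested. Of these, 1 was called in SPG, 1 in PreL and 4 in LZ, against 6.02%, 11.1% and 39.1% of all genes. The medians were 0.01, -0.31 and 0.78. *Cyp26b1*, which degrades retinoic acid, had 61 to 83 reads in WT SPG and 259 to 559 in SKO SPG and was higher in SKO SPG (2.32, adjusted p = 0.000817) and LZ (2.1, adjusted p = 0.000864). It is also made by somatic cells of the testis, and the sum of 5 peritubular myoid markers was 0.777 to 4.41 RPM in WT SPG and 35.3 to 65.3 RPM in SKO SPG, whose part in the result was not tested. The gene called in PreL was *Dmrtb1*, a relative of *Dmrt1*. It was lower in SKO PreL (-1.44, adjusted p = 0.000215) and LZ (-1.13, adjusted p = 0.0386). In LZ, *Mga* was higher (1.21, adjusted p = 0.000358) and *Pcgf6* lower (-1.69, adjusted p = 0.00158), both of a repressor complex that silences germline genes.

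Of 8 RNA-binding partners and relatives, 7 were tested and none was called in SPG or PreL by limma, edgeR or DESeq2. Of all genes, limma called 6.02% in SPG and 11.1% in PreL. In these stages, 1 and 2 of the 7 had an unadjusted p under 0.05 by limma. The list's medians were 0.05 in SPG, -0.09 in PreL and -0.19 in LZ. In LZ, 4 of 7 were called, against 39.1% of all genes, of which 3 were lower, among them *Rbm46* (-1.07, adjusted p = 0.00523), whose protein works with MEIOC and YTHDC2, and the poly(A)-binding protein gene *Pabpc1* (-1.11, adjusted p = 0.00789), and *Nanos3* was higher (1.46, adjusted p = 0.0149). Of 6 retinoic acid receptor genes, 4 were tested and 0 were called by limma, edgeR or DESeq2 in the 3 genotype comparisons. By limma, 6.02%, 11.1% and 39.1% of all genes were called in SPG, PreL and LZ. At an unadjusted p under 0.05 by limma, 0 of the 4 differed in SPG, 0 in PreL and 1 in LZ. Of 12 genes of differentiating spermatogonia (medians -0.16, 0.25 and 0.84 in SPG, PreL and LZ), 1 of 11 tested was called in SPG, 2 of 11 in PreL and 4 of 12 in LZ, against 6.02%, 11.1% and 39.1% of all genes. Of these, *Uhrf1* was lower in SKO SPG (-1.21, adjusted p = 0.000674), *Ccnd2* and *Lin28a* were higher in SKO PreL (1.76 and 1.80, adjusted p = 0.0337 and 0.0375), and in LZ 1 was lower, *Prss50* (-1.23, adjusted p = 0.00156), and 3 were higher, among them *Dnmt3b* (1.18, adjusted p = 0.0126) and *Sox3* (1.40, adjusted p = 0.0217). Of 14 genes of undifferentiated spermatogonia (medians -0.41, 0.76 and 0.80), 1 of 11 tested was called in SPG, 1 of 10 in PreL and 3 of 11 in LZ, against the same shares of all genes. Of these, *Upp1* was called higher in all 3 stages, with 0 to 2 reads in WT SPG and 11 to 53 in SKO SPG, and in LZ *Id4* was lower (-1.20, adjusted p = 0.0237) and *Egr4* higher (1.94, adjusted p = 0.00829). *Lin28a* also marks undifferentiated spermatogonia. *Lin28a* and *Upp1* rest on few reads, with 3 to 24 and 0 to 24 in WT PreL.

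In the genome (GENCODE, GRCm38), the exons of each of the 9 genes overlap no other annotated gene. *Stra8* lies at chr6:34920163-34939344 on the plus strand, *Sohlh2* at chr3:55182028-55209957 on the plus strand, *Sohlh1* at chr2:25842995-25847248 on the minus strand, *Kit* at chr5:75574916-75656722 on the plus strand and *Dmrt1* at chr19:25505618-25604329 on the plus strand. *Dazl* lies at chr17:50279395-50293636 on the minus strand, *Meioc* at chr11:102663716-102682237 on the plus strand and *Tex15* at chr8:33516738-33585582 on the plus strand.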

How the data were processed

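RNA of SPG, PreL and LZ cells from both genotypes was profiled by Smart-seq2 (oligo(dT)-primed, PCR-amplified, unstranded). Per the labels and the methods, the authors trimmed reads, mapped them to mm10 (the submitters' processing notes also list mm9), counted uniquely mapped reads with HTSeq 0.11.2 and used DESeq2; TopHat2 2.1.1 and Cufflinks 2.2.1 are also listed. The signal values that the authors deposited are these counts times 1 factor per library, derived from spike-in RNA (ERCC) and cell number. Each value was a whole multiple of the library's smallest (tolerance 0.02 reads, 100% of values), which gave whole reads. Factors ranged from 1 to 10.4.

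Size factors (median of ratios) were divided out, genes averaging 10 reads or more were kept, and limma-trend (limma 3.58.1, R 4.3.3) was run on log2(value + 10), since calibrated values are not counts. On this scale low genes appear to change less than they do. The genotypes were compared within each stage. Stage steps and interactions came from 1 model of 6 groups over all 17 libraries, and interactions were called at an adjusted p under 0.05 without a fold threshold. edgeR 4.0.16 and DESeq2 1.42.0 on the recovered reads, other scalings, pseudocounts of 1 and 50, other filters, a replicate block and each library left out served as alternatives. The fits were first tested on simulated counts in which 200 genes had known changes. Reads are PCR copies without molecular identifiers.

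The genes and lists were chosen with earlier results of these data known. All 9 members were named throughout, with *Nat10*, the 2 called genes of smallest adjusted p per list, direction and genotype comparison, and the 3 genes most alike per member. Of 78 list genes, 77 were in the table used. The member *Gm4969* was not analysed here. Adjusted p-values cover all genes tested, and no set test was run. Isoforms, exon-level reads and alleles were not analysed.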

Additional observations from a re-analysis of the deposited data

Results flagged for a closer look

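The genotype effect differed between neighbouring stages, by the interaction test of limma, for 4 members in 5 instances. Between SPG and PreL, *Stra8* differed by -1.33 (adjusted p = 0.00916), with all SKO libraries above WT in SPG and below WT in PreL on rescaled values. Between PreL and LZ, *Dmrt1* differed by 1.35 (adjusted p = 0.000156), *Kit* by 1.26 (adjusted p = 0.000329), *Stra8* by 0.68 (adjusted p = 0.0169) and *Dazl* by 0.62 (adjusted p = 0.0471). On rescaled values, the SKO libraries of *Dmrt1*, *Kit* and *Dazl* overlapped with WT in PreL and lay above both WT libraries in LZ.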

How the results depend on the processing

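Over 1323 values of single members under alternatives, 76 changed sign, 36 of them on the ERCC-calibrated values without rescaling and 67 with no call in either setting. The 9 others all arose without rescaling, where the median gene shifts: the PreL to LZ step in WT became 1.23 for *Dazl*, 1.10 for *Gm1564*, 1.59 for *Sohlh1* and 1.15 for *Ythdc2*, the SPG and PreL interaction became 0.79 for *Dmrt1* and 1.0 for *Gm1564*, and the PreL and LZ interaction became -0.25 for *Dazl*, -0.19 for *Stra8* and -0.85 for *Tex15*. Of 154 counts of members called, 131 stayed within 1.5 times the reported count. Without rescaling, the count became 3 for LZ against PreL in SKO, 5 for LZ against PreL in WT and 4 for PreL against SPG in SKO. Of all 13530 genes, 4564, 10806 and 6077 were called in these steps. The count became 1 for the genotypes in LZ, beside 5396 of 13724 genes, and 2 in PreL, beside 4044 of 13132 genes. For the SPG and PreL interaction it became 4, beside 6085 of 13530 genes. For LZ against PreL in WT the count was 4 with TMM scaling and 2 with edgeR, beside 3931 and 3583 of 13530 genes. With no fold threshold it was 3 in SPG, 2 in PreL, 3 for PreL against SPG in SKO, 5 for LZ against PreL in WT and 4 in SKO. Leaving out each library in turn gave 0 to 2 for LZ against PreL in SKO, 1 to 3 in WT, 0 to 1 for PreL against SPG in WT, 0 to 3 for the genotypes in LZ and 0 to 1 in PreL; the library behind each lost call is named beside the result.

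Same-numbered WT and SKO libraries correlated at -0.053 to 0.11 in their deviations from group means, so the numbers were not taken as pairs. With a replicate block, 0 members were called between the genotypes in PreL, where *Sohlh2* was at 0.93 (adjusted p = 0.0143, against 5.15e-06 to 0.0238 over its alternatives on rescaled values). The WT LZ group holds 2 libraries, and without 1 of them the other is assumed to vary like the remaining groups. SKO LZ libraries are the shallowest, at most 7609420 reads, and *Sohlh1* and *Sohlh2* have at most 420 reads there.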
